A study of Mus musculus with 8 samples.

Results

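The genes described here are 10 transcription factors of the naive pluripotent state: Esrrb, Klf2, Klf4, Klf5, Tfcp2l1, Tbx3, Zfp42, Prdm14, Nr5a2 and Nr0b1. They were taken by gene symbol from the deposited gene tables, which list 38987 genes, and all 10 were found in all 8 tables with a usable estimate. The study made mouse pluripotent stem cells with small-molecule compounds, called CiPSC for chemically induced pluripotent stem cells, and measured messenger RNA by sequencing. There were 5 groups. NSC was 1 library of cultured neural stem cells at passage 2, from E13.5 embryos, and NSC-CiPSC were lines 1, 2 and 3 derived from such cells. IEC was 1 library of primary small intestinal epithelial cells from embryos of the same age, and IEC-CiPSC were lines 10 and 13 derived from such cells. ESC was 1 library of R1 embryonic stem cells of strain 129X1 x 129S1. The strain of the other 7 libraries is labelled C57BL/6J-Tg(GOFGFP)11Imeg/RbrcxICR, with the number before Imeg running from 11 to 17 over the 7 labels. GOFGFP is a green fluorescent protein reporter driven by Pou5f1 regulatory sequence. The labels name no compounds, do not say whether the lines came from separate animals, and give no culture medium, so p-values measure only the spread between these lines. The ESC library differs from the lines in strain as well as in origin, and these cannot be told apart.

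Mouse embryonic stem cells in the naive state resemble the inner cell mass of the blastocyst before implantation. Their identity rests on a core of Pou5f1, Sox2 and Nanog and on a set of supporting factors that are lost when the cells move to the primed state of the later epiblast. The signalling protein LIF, through STAT3, raises Klf4 and Tfcp2l1 in these cells, and release of the repressor Tcf7l1 by the Wnt pathway raises Esrrb. Prdm14 restrains FGF receptor signalling and the de novo DNA methyltransferases. Several of these factors can replace one another in culture, and forced expression of Klf2, Klf4, Esrrb or Nr5a2 has been used in reprogramming.

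Levels are given as FPKM, the fragment count of a gene corrected for its transcript length and for the depth of the library. The interval beside a level is the 95% interval deposited with it, and it covers the estimate within that library only. Depth, estimated from these intervals, was 8810000 to 10120000 fragments per library, and the mitochondrial share of summed FPKM ranged from 1.94% to 11.6%. The summed level of 5 pluripotency markers was 4127 to 8211 FPKM in the 6 pluripotent libraries, against 7.96 in NSC and 0.523 in IEC. All 6 neural stem cell markers were above 1 FPKM in NSC, with a sum of 5719 FPKM. The library labelled IEC held little of its defining markers: 2 of 6 intestinal epithelial markers reached 1 FPKM, their sum was 5.24 FPKM, Cdx2 stood at 0.0912 FPKM and Muc2 was listed at 0. All 5 general epithelial markers were above 1 FPKM in that library, with a sum of 147 FPKM. Markers of other tissues were higher there, with sums of 6784 FPKM for 7 mesenchymal genes, 5669 for 4 hepatic genes, 3380 for 5 leukocyte genes, 2829 for 4 smooth muscle genes and 1384 for 6 pancreatic exocrine genes. The part of these other cells in the levels of the naive-state factors in IEC was not tested.

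All 10 factors were higher in the CiPSC lines than in the cells they came from, along both routes. For every one of them, both source libraries lay below all 6 pluripotent libraries, which was the case for 26.3% of the 16989 genes tested. In the pluripotent libraries the 10 factors ranged from 4.68 FPKM (Prdm14 in NSC-CiPSC line 1) to 764 FPKM (Zfp42 in ESC). In NSC, 2 factors were listed at 0, 4 lay between 0 and 1 FPKM and 4 at 1 FPKM or above, with none above 2.32. In IEC, 3 were listed at 0, 1 lay between 0 and 1 FPKM and 6 at 1 FPKM or above, of which Klf2, Klf4 and Klf5 exceeded 5 FPKM. The test was limma on log2(FPKM + 1), with Benjamini-Hochberg adjustment over all genes tested. Calls needed both a difference of 2-fold or more and an adjusted p below 0.05. In NSC-CiPSC against NSC, 10 of 10 factors were called higher, where 18.3% of all genes were (20.8% were called lower and 39.0% in either direction), with a median log2 difference of 4.56 against 0.03 over all genes. In IEC-CiPSC against IEC, 10 of 10 were called higher, where 19.1% of all genes were (26.2% lower, 45.3% in either direction), with a median of 4.17 against -0.03 over all genes. All 20 of these calls were kept under all 15 alternative settings, with the highest adjusted p at 0.0306 for the neural and 0.0250 for the intestinal route. The share of all called genes that were higher in NSC-CiPSC than in NSC was 46.8%, and it moved to 58.8% with an equal median. It moved to 36.9% when libraries were scaled to an equal sum. Mitochondrial and selenoprotein entries were left out of that sum, here and wherever an equal sum is named below. For IEC-CiPSC against IEC the share was 42.2%, and it moved to 52.6% with quantile normalization and 59.7% with an equal median. The single NSC, IEC and ESC libraries were assumed to vary as the lines do.

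**Figure D1:**
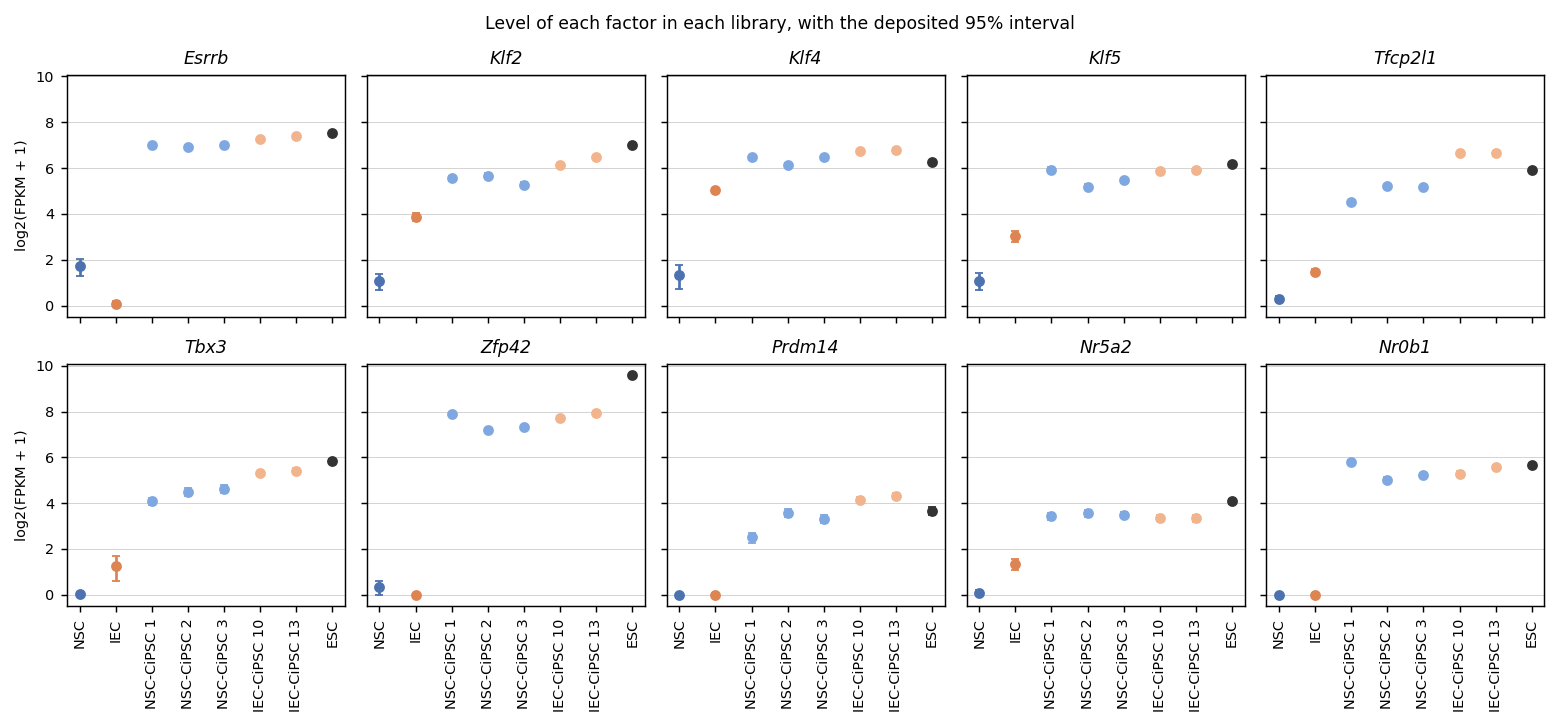
Level of each of the 10 factors in each library as log2(FPKM + 1), with the deposited 95% interval as bars (hidden by the point where narrow). The 2 source libraries are at the left of each panel and lie below the 5 CiPSC lines and the ESC library in all 10 panels, and Zfp42 in ESC is the highest point at 764 FPKM.

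Esrrb, an orphan nuclear receptor that binds DNA beside the core factors and maintains self-renewal, lies on chromosome 12 (86361117 to 86521628, plus strand, mm10). Its level was 2.32 FPKM in NSC, 127, 122 and 129 FPKM in NSC-CiPSC lines 1, 2 and 3, 0.0486 FPKM in IEC with an interval from 0 to 0.166, 153 and 169 FPKM in IEC-CiPSC lines 10 and 13, and 185 FPKM in ESC. The lines of each origin were close together, with means of 126 ± 3.89 FPKM (SD, n = 3) and 161 ± 11.4 FPKM (SD, n = 2), and the 3 pluripotent groups did not overlap. Esrrb rose by 5.25 ± 0.08 on the log2 scale (SE; limma adjusted p = 2.36e-05) along the neural route and by 7.27 ± 0.09 (adjusted p = 3.74e-06) along the intestinal route. Because Esrrb in IEC rested on less than 1 fragment, the size of the second value depends on the pseudocount, and it was 10.08 with a pseudocount of 0.1.

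Nr5a2, also called Lrh-1, is a nuclear receptor that can stand in for Pou5f1 in reprogramming (chromosome 1, 136843584 to 136960427, minus strand). It was at 0.0591 FPKM in NSC (interval 0 to 0.161), 9.75, 10.8 and 10.3 FPKM in NSC-CiPSC lines 1, 2 and 3, 1.56 FPKM in IEC, 9.29 and 9.10 FPKM in IEC-CiPSC lines 10 and 13, and 16.0 FPKM in ESC. The 5 lines lay close together, below ESC and above both source libraries. The rise was 3.41 ± 0.12 on the log2 scale (adjusted p = 0.000194) along the neural route and 1.99 ± 0.13 (adjusted p = 0.000556) along the intestinal route, and with a pseudocount of 0.1 the neural value was 6.03. Nr5a2 in IEC stood at 9.71% of its ESC level, and its level in NSC was 0.368% of it.

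Nr0b1, also called Dax1, lacks a usual DNA-binding domain and acts on partner proteins, among them Nr5a2 and Pou5f1 (X chromosome, 86191764 to 86195947, plus strand). It was listed at 0 in NSC and in IEC. The lines held 54.9, 31.1 and 36.1 FPKM (NSC-CiPSC 1, 2 and 3) and 37.9 and 46.6 FPKM (IEC-CiPSC 10 and 13), and ESC held 50.1 FPKM. For scale, 3 fragments would be worth 0.175 to 0.201 FPKM of this gene. Both IEC-CiPSC lines and ESC fell within the range of the NSC-CiPSC lines. Both routes were called higher (adjusted p = 0.000939 and 0.000736). No fold is given against a library listed at 0.

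The 3 Krüppel-like factors bind related GC-rich sites and can replace one another in keeping mouse embryonic stem cells undifferentiated. Klf2 (chromosome 8, 72319033 to 72321656, plus strand) was at 1.11 FPKM in NSC, 46.1, 49.99 and 37.6 FPKM in NSC-CiPSC lines 1, 2 and 3, 13.7 FPKM in IEC, 70.0 and 87.9 FPKM in IEC-CiPSC lines 10 and 13, and 127 FPKM in ESC. The groups ran in the order NSC-CiPSC, IEC-CiPSC, ESC without overlap. Klf4 (chromosome 4, 55527143 to 55532466, minus strand) was at 1.51 FPKM in NSC, 88.0, 69.4 and 87.4 FPKM in NSC-CiPSC, 31.8 FPKM in IEC, 107 and 111 FPKM in IEC-CiPSC, and 75.4 FPKM in ESC. Here IEC-CiPSC stood highest and the ESC level fell among the NSC-CiPSC lines. Klf5 (chromosome 14, 99298691 to 99313405, plus strand) was at 1.14 FPKM in NSC, 60.4, 35.1 and 43.3 FPKM in NSC-CiPSC, 7.19 FPKM in IEC, 57.0 and 59.1 FPKM in IEC-CiPSC, and 71.4 FPKM in ESC. Klf5 in NSC-CiPSC line 1 was above both IEC-CiPSC lines, so these groups overlapped, and ESC lay above all 5 lines.

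The 3 genes rose by 4.42 ± 0.22 (Klf2, adjusted p = 0.000429), 5.03 ± 0.16 (Klf4, adjusted p = 0.000159) and 4.43 ± 0.32 (Klf5, adjusted p = 0.00107) on the log2 scale along the neural route. Along the intestinal route they rose by 2.43 ± 0.23 (adjusted p = 0.00172), 1.75 ± 0.17 (adjusted p = 0.00197) and 2.85 ± 0.34 (adjusted p = 0.00325) in the same order. Their starting levels differed: Klf4 in IEC was already at 42.2% of its ESC level, Klf2 at 10.8% and Klf5 at 10.1%, and in NSC they stood at 2.00%, 0.878% and 1.59%. Between them, Klf2, Klf4 and Klf5 are also expressed in epithelia, mesenchyme, endothelium and blood cells, and the IEC library held markers of several of these as given above. In bulk RNA, fewer cells of a type and less RNA per cell cannot be told apart.

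Summed over the 3 genes on the FPKM scale, the level was 3.76 in NSC, 52.7 in IEC, 154 to 195 in the NSC-CiPSC lines, 234 and 258 in the IEC-CiPSC lines and 274 in ESC. Klf2 made up 46.3% of this sum in ESC against 22.4% to 34.1% over the 5 lines. Klf4 made up 27.6% in ESC and 43.0% to 51.9% in the lines. The larger share was thus Klf2 in ESC and Klf4 in every line, and no test was made of these shares.

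Tfcp2l1, a grainyhead-family factor and direct target of LIF and STAT3, lies on chromosome 1 (118627945 to 118685167, plus strand). Its level was 0.223 FPKM in NSC, 22.0, 36.5 and 35.3 FPKM in NSC-CiPSC lines 1, 2 and 3, 1.80 FPKM in IEC, 99.5 and 102 FPKM in IEC-CiPSC lines 10 and 13, and 59.5 FPKM in ESC. The IEC-CiPSC lines stood above ESC, and all 3 NSC-CiPSC lines stood below it. The rise was 4.69 ± 0.32 on the log2 scale (adjusted p = 0.00099) along the neural route and 5.18 ± 0.34 (adjusted p = 0.000617) along the intestinal route, and with a pseudocount of 0.1 the neural value was 6.56. Tfcp2l1 was the one factor called different between the lines of different origin, so its promoter sequence is printed here. The 250 bases before its start (chr1:118627695-118627944, plus strand, from RefSeq on GRCm38.p6) hold the Krüppel-like factor motif GGGNGTG at 2 places on the reverse strand, shown in capitals, 46 and 60 bases before the start.
Tfcp2l1 promoter: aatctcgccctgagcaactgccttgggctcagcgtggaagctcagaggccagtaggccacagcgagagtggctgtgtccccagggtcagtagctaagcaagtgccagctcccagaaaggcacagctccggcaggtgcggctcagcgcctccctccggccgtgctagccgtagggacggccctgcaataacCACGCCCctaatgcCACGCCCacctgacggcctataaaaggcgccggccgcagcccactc
The motif was searched on both strands. It occurs in 29.2% of 32851 promoter windows, each running from 250 bases before the start to 50 bases after it. The match is thus a description of these letters only.

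Tbx3, a T-box factor that acts mostly as a repressor and blocks differentiation, lies on chromosome 5 (119670669 to 119684724, plus strand). It was at 0.0221 FPKM in NSC (interval 0 to 0.0973), 16.0, 21.8 and 23.7 FPKM in NSC-CiPSC lines 1, 2 and 3, 1.37 FPKM in IEC, 38.6 and 41.7 FPKM in IEC-CiPSC lines 10 and 13, and 56.5 FPKM in ESC. The pluripotent groups ran from NSC-CiPSC through IEC-CiPSC to ESC without overlap. Tbx3 rose by 4.37 ± 0.24 (adjusted p = 0.000577) and 4.11 ± 0.26 (adjusted p = 0.000536) on the log2 scale along the neural and intestinal routes. The NSC level of Tbx3 rests on less than 1 fragment, and the neural difference was 7.38 with a pseudocount of 0.1.

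Zfp42, also called Rex1, is a zinc finger gene derived from Yy1 that serves as a standard marker of the naive state (chromosome 8, 43295068 to 43307009, minus strand). It was at 0.255 FPKM in NSC, resting on 4 fragments, and was listed at 0 in IEC. The lines held 238, 146 and 158 FPKM (NSC-CiPSC 1, 2 and 3) and 207 and 247 FPKM (IEC-CiPSC 10 and 13), against 764 FPKM in ESC with an interval from 751 to 778. The ESC library stood above every line, and the NSC-CiPSC and IEC-CiPSC ranges overlapped. Zfp42 was called higher along the neural route, by 7.14 ± 0.32 on the log2 scale (adjusted p = 0.000358), and along the intestinal route (adjusted p = 0.000191). With a pseudocount of 0.1 the neural difference was 8.96. Its promoter is shown because Zfp42 had the widest gap to ESC of the 10 factors and because 1 motif in it was found in no other factor's window. The 250 bases before its start (chr8:43307010-43307259, minus strand, RefSeq, GRCm38.p6) hold the octamer ATGCAAAT, the site of Pou5f1-type factors, on the reverse strand 186 bases before the start, and the motif GGGNGTG on the reverse strand 74 bases before it, both in capitals.
Zfp42 promoter: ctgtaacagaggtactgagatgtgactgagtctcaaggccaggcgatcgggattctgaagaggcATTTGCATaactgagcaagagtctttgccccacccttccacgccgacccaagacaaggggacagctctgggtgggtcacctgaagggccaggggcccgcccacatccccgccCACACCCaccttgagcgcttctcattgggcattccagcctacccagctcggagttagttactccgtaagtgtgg
The octamer occurs in 1.74% of the 32851 promoter windows, on either strand. In the 9 promoter windows found for 7 of the 10 factors (Esrrb, Klf2, Klf4, Tfcp2l1, Zfp42, Nr5a2 and Nr0b1), GGGNGTG was present in 5 and CTTTGA, the TCF motif (16.0% of all windows), in 1, that of Nr0b1. The letters AAGGTCA of Esrrb and Nr5a2, TTCCNGGAA of STAT factors, GGTGTGA of T-box factors, GCCATNTT of Yy1 and the paired CCAG of Tfcp2l1 with 6 bases between were in none of them, and occur in 4.72%, 1.15%, 3.98%, 6.05% and 3.44% of all windows.

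Prdm14, a PR-domain regulator needed for naive pluripotency and germ cells (chromosome 1, 13113457 to 13127163, minus strand), was the lowest of the 10 in NSC-CiPSC lines 1 and 3 and in ESC on the FPKM scale. It was listed at 0 in NSC and IEC, where 3 fragments would be worth 0.119 to 0.136 FPKM. Its level was 4.68, 11.0 and 9.06 FPKM in NSC-CiPSC lines 1, 2 and 3, 16.7 and 18.8 FPKM in IEC-CiPSC lines 10 and 13, and 11.7 FPKM in ESC. The IEC-CiPSC lines were highest and the NSC-CiPSC lines lowest, with ESC just above the highest of them. Both routes were called higher (adjusted p = 0.00736 and 0.00326).

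The size of the change differed between the routes for 4 of the 10 factors, where 30.5% of all genes differed by the same test of the difference. The change was more positive along the neural route for 3 (17.6% of all genes) and along the intestinal route for 1 (13.0%). Klf4 rose by 3.29 ± 0.24 more on the log2 scale along the neural than the intestinal route (adjusted p = 0.00134), Klf2 by 1.99 ± 0.32 more (adjusted p = 0.0129) and Nr5a2 by 1.42 ± 0.17 more (adjusted p = 0.00631). Esrrb changed by -2.01 ± 0.12 in this contrast (adjusted p = 0.000741), a larger rise along the intestinal route. In the source libraries, Klf2, Klf4 and Nr5a2 were higher in IEC than in NSC, and Esrrb was higher in NSC. The call for Nr5a2 was lost with quantile normalization, where the difference was 0.69 and so under 2-fold. The count rose to 7 with a pseudocount of 0.1, and Klf5 had a difference of 1.58 ± 0.46 with an adjusted p of 0.0633. Over the 10 factors, 6 were higher in IEC than in NSC, 2 were higher in NSC (Esrrb and Zfp42) and 2 were listed at 0 in both. Each source group is 1 library.

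**Figure D2:**
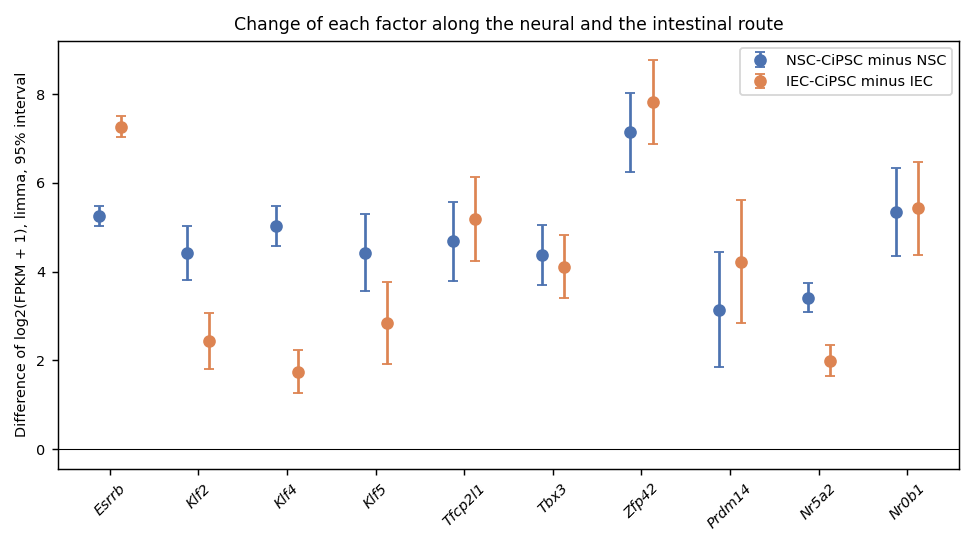
Difference of log2(FPKM + 1) between CiPSC lines and source cells for the 10 factors, with the 95% interval from limma, for the neural (NSC-CiPSC minus NSC) and intestinal (IEC-CiPSC minus IEC) routes. The intervals do not overlap for Esrrb, Klf2, Klf4 and Nr5a2. Where a source level was listed at 0 (Prdm14 and Nr0b1 in both, Zfp42 in IEC) the height depends on the pseudocount of 1. The same holds where it was above 0 but under 1 FPKM (Esrrb in IEC, and Tfcp2l1, Tbx3, Zfp42 and Nr5a2 in NSC).

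Against ESC the lines were lower for most factors, and few differences passed the test. The group mean was highest in ESC for 7 factors and in IEC-CiPSC for 3 (Klf4, Tfcp2l1 and Prdm14), and lowest in NSC-CiPSC for 8. In NSC-CiPSC against ESC, 0 factors were called higher and 1 was called lower, where 0.942% of all genes were called higher, 1.86% lower and 2.80% in either direction. The call was Klf2, with a difference of -1.50 ± 0.22 on the log2 scale (adjusted p = 0.04996), just inside the threshold and called under 6 of 15 alternatives. The unadjusted p was under 0.05 for 6 factors and for 22.1% of all genes, and the median difference of the 10 was -0.62 against 0.02 over all genes. Tbx3 differed by -1.44 ± 0.24 (adjusted p = 0.0659, called under 4 of 15 alternatives) and Zfp42 by -2.11 ± 0.32 (adjusted p = 0.0557, called under 6 of 15). Mean Zfp42 in ESC was 4.23 times that in NSC-CiPSC and 3.37 times that in IEC-CiPSC.

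In IEC-CiPSC against ESC, 0 of 10 factors were called by limma, where 1.64% of all genes were called higher, 1.73% lower and 3.37% in either direction, and the unadjusted p was under 0.05 for 4, and for 24.1% of all genes. The largest difference was that of Zfp42, -1.75 ± 0.34 (adjusted p = 0.0778), and it was called under 2 of 15 alternatives. Nr5a2 differed by -0.74 ± 0.13 (adjusted p = 0.0624). The median over the 10 was -0.27 on the log2 scale against 0 over all genes. The 95% interval of the difference reached a 2-fold size for 7 factors in NSC-CiPSC and 9 in IEC-CiPSC, so a difference of that size could not be set aside for them. It stayed within 2-fold for Esrrb, Klf4 and Nr5a2 in NSC-CiPSC and for Esrrb in IEC-CiPSC. Both comparisons use the same ESC library. The sum of 3 Zscan4 genes, which mark a 2-cell-like state, also differed between these groups, at 235 FPKM in ESC, 83.5 to 132 in NSC-CiPSC and 24.2 to 25.1 in IEC-CiPSC, and its part in the levels above was not tested.

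**Figure D3:**
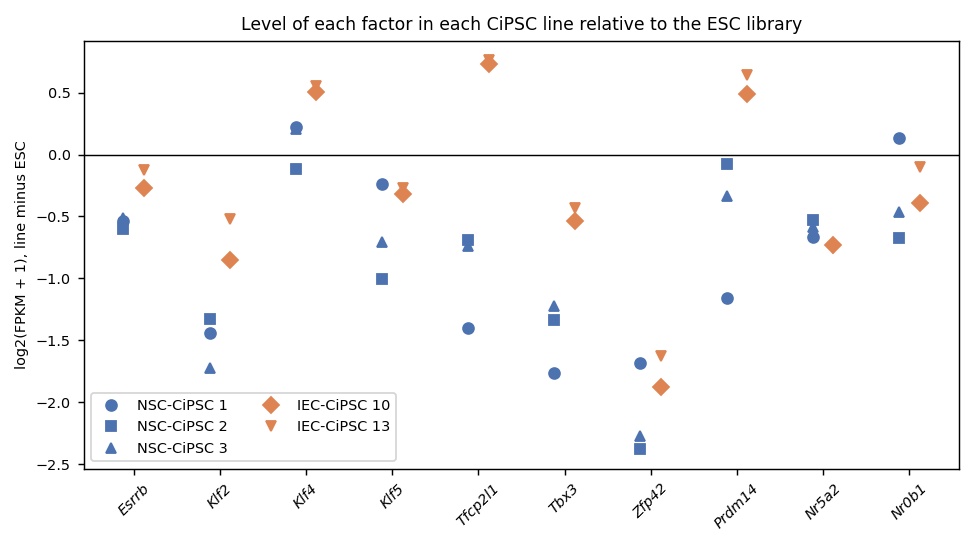
Level of each factor in each of the 5 CiPSC lines relative to the ESC library, as a difference of log2(FPKM + 1), with blue symbols for NSC-CiPSC and orange for IEC-CiPSC lines. All 5 lines are below 0 for Esrrb, Klf2, Klf5, Tbx3, Zfp42 and Nr5a2, and only the IEC-CiPSC lines are above 0 for Tfcp2l1 and Prdm14.

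Klf2 and Zfp42, the factors furthest below ESC in the NSC-CiPSC lines, both lie on chromosome 8. Over genes at 1 FPKM or above in every library compared, the median of chromosome 8 was the lowest of all chromosomes, at -0.25 over 570 genes in NSC-CiPSC against ESC and -0.30 over 567 genes in IEC-CiPSC against ESC. The medians over all such genes were 0.05 and 0.01. A separate setting subtracted, within each library, the median level of all tested genes on a chromosome. Its medians include genes under 1 FPKM in some libraries, so they are not the medians given here. With each gene measured against its own chromosome's median, Klf2 in NSC-CiPSC differed from ESC by -1.18 (adjusted p = 0.0562) and was no longer called. Zfp42 differed by -1.79 (adjusted p = 0.0459) and was called, where without this setting it was not (-2.11, adjusted p = 0.0557). Over all genes, 396 were called lower under this setting and 316 without it. With an equal median and no chromosome step, 415 were called lower. The gained call thus cannot be told apart from that wider rise in calls. Nr0b1 is on the X chromosome, whose median was 0.76 over 466 genes in IEC-CiPSC against ESC, the highest of all chromosomes, and 0.01 over 409 genes in NSC-CiPSC against ESC. Under the setting that subtracts chromosome medians within each library, Nr0b1 in IEC-CiPSC differed from ESC by -0.90 and not by -0.25. There was no call in either case.

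**Figure D4:**
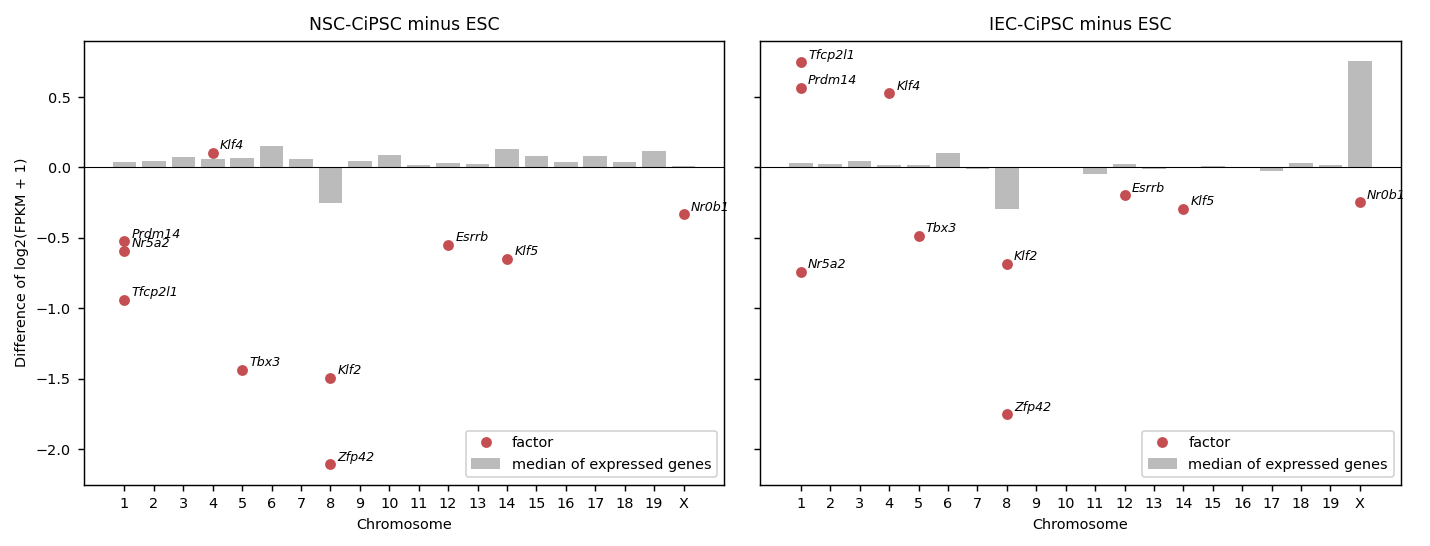
Difference of log2(FPKM + 1) from the ESC library for each factor (red points) at its chromosome, beside the median over expressed genes of each chromosome (grey bars), for NSC-CiPSC at the left and IEC-CiPSC at the right. Chromosome 8 has the lowest median in both panels (-0.25 and -0.30) and holds Klf2 and Zfp42, which lie well below it, and the X chromosome stands at 0.76 in the right panel.

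Lines of different origin were compared directly, the one comparison with replicate lines on both sides. Tfcp2l1 was lower in NSC-CiPSC (31.3 ± 8.05 FPKM, SD, n = 3) than in IEC-CiPSC (100.5 ± 1.43 FPKM, SD, n = 2). The difference was -1.69 ± 0.26 on the log2 scale (adjusted p = 0.0363). This was 1 factor of 10 called lower, where 2.77% of all genes were (4.33% in either direction). With limma 0 were called higher, where 1.56% of all genes were, and the unadjusted p was under 0.05 for 6 factors and for 28.8% of all genes. The call held under 10 of 15 alternatives and was lost without NSC-CiPSC line 2 or 3, without either IEC-CiPSC line and without a filter on low values. All NSC-CiPSC lines lay below both IEC-CiPSC lines for 6 of 10 factors and for 21.0% of all genes. Beside Tfcp2l1 these were Esrrb, Klf2, Klf4, Tbx3 and Prdm14, and none of these 5 was called. Tbx3 was at 20.5 ± 4.001 against 40.1 ± 2.20 FPKM, Klf2 at 44.6 ± 6.31 against 78.9 ± 12.7 FPKM and Prdm14 at 8.24 ± 3.24 against 17.8 ± 1.46 FPKM. The log2 differences were -0.35 for Esrrb (adjusted p = 0.0539), -0.81 for Klf2 (adjusted p = 0.0673), -0.42 for Klf4 (adjusted p = 0.130), -0.95 for Tbx3 (adjusted p = 0.0616) and -1.09 for Prdm14 (adjusted p = 0.159). Nr5a2 (0.15) was the one factor with a positive difference, and Nr0b1 (-0.09) and Nr5a2 lay nearest to 0. Nr0b1 is on the X chromosome, and its difference was 0.77 with chromosome medians subtracted within each library. The order ESC above both IEC-CiPSC lines and these above all NSC-CiPSC lines was met by Esrrb, Klf2 and Tbx3, 3 of 10 factors, and by 3.55% of all genes. The summed level of 7 mesenchymal and feeder markers was 37.0 to 40.8 FPKM in the IEC-CiPSC lines, 4.75 to 8.55 in the NSC-CiPSC lines and 9.18 in ESC, and its part in these differences was not tested. Over genes at 1 FPKM or above in every library compared here, the X chromosome had the lowest median. It was -0.79 over 415 genes, against 0.05 over all such genes. This shift and the origin of the lines cannot be told apart, and its part in these differences was not tested.

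Among the NSC-CiPSC lines, line 1 stood apart for 6 of 10 factors, in that its deposited interval lay wholly outside those of lines 2 and 3. Line 1 was above the others for Klf5, Zfp42 and Nr0b1 and below them for Tfcp2l1, Tbx3 and Prdm14. Over all genes tested this was so for 17.6%, and over genes with a mean of at least 10 FPKM in the 3 lines for 31.8%, against 5 of the 9 factors at such a level. Line 2 stood apart for Klf4 and Klf5, below the others in both (5.99% of all genes), and line 3 for Klf2 (0.789%), also below. Over genes with a mean of at least 10 FPKM in the 3 lines, these shares were 12.6% for line 2 and 1.63% for line 3. The ratio of the highest to the lowest NSC-CiPSC line was 2.35 for Prdm14, 1.77 for Nr0b1, 1.72 for Klf5 and 1.66 for Tfcp2l1, and 1.06 for Esrrb. In the IEC-CiPSC lines the ratio of the higher to the lower ranged from 1.02 (Tfcp2l1 and Nr5a2) to 1.26 (Klf2).

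The counts of the gene lists that follow are to be read against the shares over all genes, 18.3% higher and 20.8% lower along the neural route and 19.1% higher and 26.2% lower along the intestinal route. Of 11 core factors and other partners of the network, 5 were called higher and 1 lower along the neural route, with a median log2 difference of 1.63. The largest rises were those of Pou5f1 (8.26, adjusted p = 1.6e-05), Nanog (7.84) and Sall4 (6.00), and the nuclear receptor coactivator Ncoa3, a partner of Esrrb, rose by 2.93. Sox2, already at 171 FPKM in NSC and at 138 to 143 FPKM in the NSC-CiPSC lines, was not called. Along the intestinal route 7 were called higher and 1 lower, with a median of 1.79, led by Pou5f1 (10.10), Nanog (8.91), Sox2 (5.87) and Sall4 (5.05). Stat3 fell in both routes, by 1.43 on the log2 scale in each, from 69.7 FPKM in NSC and 54.0 FPKM in IEC to 19.0 to 26.7 FPKM over the 5 lines. Tcf7l1, the repressor of Esrrb, Klf2 and Nanog, was called higher in NSC-CiPSC (53.0, 44.3 and 52.2 FPKM) than in ESC (22.1 FPKM), by 1.13 (adjusted p = 0.0312), and stood at 29.1 and 28.6 FPKM in IEC-CiPSC.

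Of 7 genes of the LIF pathway, 2 were called higher and 3 lower along the neural route, and 1 higher and 4 lower along the intestinal route (all genes: 18.3% and 20.8%, then 19.1% and 26.2%). Socs3, the feedback inhibitor that STAT3 induces, rose by 3.20 and 2.43, from 4.10 FPKM in NSC and 11.7 FPKM in IEC to 43.5 to 70.1 FPKM in the lines, with 53.6 FPKM in ESC. The kinase gene Jak2 (-2.63 and -2.70) and the receptor subunit gene Il6st (-1.37 and -2.75) fell in both routes. The LIF receptor gene Lifr was at 5.47, 4.09 and 5.35 FPKM in NSC-CiPSC and 11.0 FPKM in ESC, a difference of -1.01 that was not called (adjusted p = 0.0759).

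Of 12 genes of the primed epiblast, 11 were tested and Fgf5 was at most 0.572 FPKM in any library. Along the neural route 3 were called higher and 3 lower, and along the intestinal route 7 higher and 2 lower. Otx2, which drives the exit from the naive state, was at 0.542, 0.580 and 0.533 FPKM in NSC-CiPSC, 5.55 and 3.89 FPKM in IEC-CiPSC and 10.7 FPKM in ESC. It was called lower in NSC-CiPSC than in ESC (-2.92, adjusted p = 0.00865) and than in IEC-CiPSC (-1.87, adjusted p = 0.0125). Sox4 was called lower in IEC-CiPSC than in ESC (-1.51, adjusted p = 0.0144) and higher in NSC-CiPSC than in IEC-CiPSC (1.94, adjusted p = 0.00519). Between lines of different origin, 1 gene of this list was thus called lower in NSC-CiPSC and 1 higher (all genes: 2.77% and 1.56%). Of 5 genes that Prdm14 is known to restrain, Dnmt3b and Dnmt3l rose and Fgfr1 and Fgfr2 fell along both routes. Dnmt3a was called in neither, with log2 differences of 1.03 along the neural and -1.32 along the intestinal route. Dnmt3l went from 0.483 FPKM in NSC and 0.579 FPKM in IEC to between 87.5 and 257 FPKM in the lines. Fgfr2 went from 39.5 FPKM in NSC and 34.2 FPKM in IEC to between 1.64 and 5.23 FPKM.

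Of 14 other Krüppel-like factor genes, 12 were tested, with 3 called higher and 3 lower along the neural route (median -0.02) and 4 higher and 2 lower along the intestinal route (median 0.24). Over all genes the shares were 18.3% higher and 20.8% lower, then 19.1% and 26.2%. Klf8 and Klf16 rose in both routes, and Klf6 fell in both. Klf8 had the largest rise, from 0.163 FPKM in NSC and 0.600 FPKM in IEC to 5.94 to 9.82 FPKM in NSC-CiPSC and 11.9 and 33.6 FPKM in IEC-CiPSC. The sum over the 14 was 146 FPKM in NSC, 110.0 FPKM in IEC and 149.7 to 200.4 FPKM in the 6 pluripotent libraries. Esrra, the ubiquitous relative of Esrrb, fell along the neural route by 1.61 (adjusted p = 0.00577), from 53.7 FPKM in NSC to 13.6 to 19.9 FPKM. Esrrg, Nr5a1 and Nr0b2 did not reach 1 FPKM in any library.

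Of 5 relatives of Tfcp2l1, the epithelial factors Grhl2 and Grhl3 were called higher in both routes, and Tfcp2, Ubp1 and Grhl1 in neither. Of 9 other T-box genes, 4 were tested, with 1 called higher and 1 lower along the intestinal route. Tbx21 was listed at 0 in IEC, stood at 1.52 and 2.62 FPKM in IEC-CiPSC (adjusted p = 0.00620) and was called lower in NSC-CiPSC than in IEC-CiPSC (-1.37, adjusted p = 0.0276). Tbx2, the closest relative of Tbx3, was at 3.50 FPKM in IEC, fell along the intestinal route (-2.01, adjusted p = 0.00126), and did not exceed 0.313 FPKM in the pluripotent libraries. Of 12 other Prdm genes, 9 were tested, with 3 called higher along the neural route, and 2 higher (Prdm1 and Prdm10) and 1 lower (Prdm6) along the intestinal route. Prdm10 rose in both routes. Yy1, the parent gene of Zfp42, was at 30.6 to 44.95 FPKM in all 8 libraries and was not called in any comparison.

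**Figure D5:**
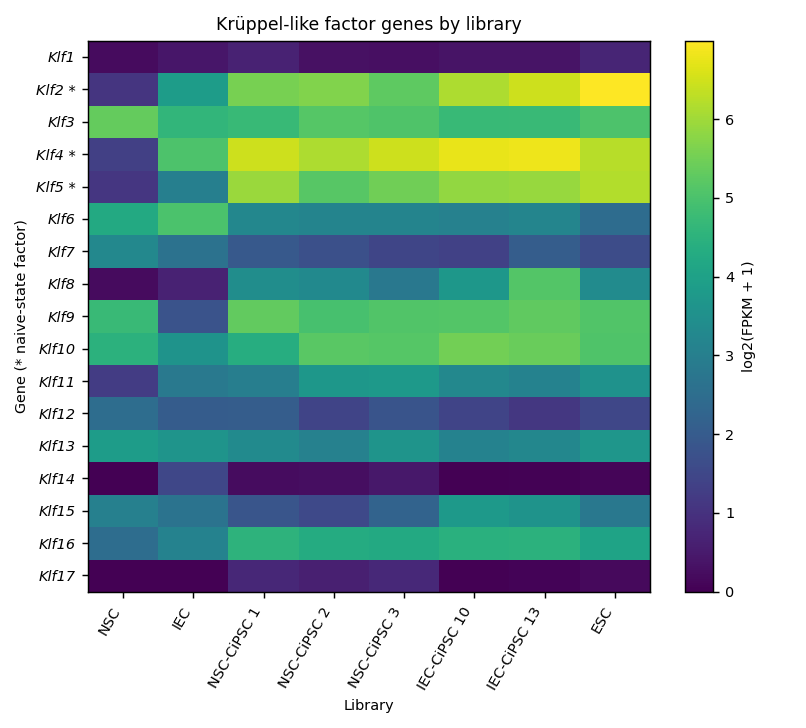
Level of the 17 Krüppel-like factor genes in the 8 libraries as log2(FPKM + 1), on a colour scale from 0 (dark) to about 7 (yellow), with the naive-state factors marked by a star. Klf2, Klf4 and Klf5 go from dark in NSC to bright in the 6 pluripotent libraries, Klf3 is at 23.4 FPKM or above in every column, and Klf4 is already intermediate in IEC.

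Genes with the most similar pattern were sought among 9816 genes of at least 10 FPKM in at least 1 library, by Pearson's r of log2(FPKM + 1) over the 8 libraries. These correlations are descriptions, since the 8 libraries share the gap between source and pluripotent cells. Nearest to Zfp42 were Tma16 (r = 0.998) and Triml2 (r = 0.997), both on chromosome 8, and Rex2 (r = 0.997) on chromosome 4. Triml2 was at 105 FPKM in ESC and at 29.6 to 38.6 FPKM in the lines, and Rex2 was at 88.1 FPKM in ESC and 30.2 to 61.1 FPKM in the lines. Genes near Tfcp2l1 were Gjb5 and Usp48, both on chromosome 4. Usp48, a ubiquitin-specific protease gene, was at 74.7 to 79.4 FPKM in NSC-CiPSC, 141 and 133 FPKM in IEC-CiPSC and 99.2 FPKM in ESC, in the same group order as Tfcp2l1. Nearest to Nr0b1 were Zfp110, Trim71 and Tdh, and Tdh, the threonine dehydrogenase of mouse embryonic stem cells, was highest of the NSC-CiPSC lines in line 1 as Nr0b1 was, at 240 FPKM against 122 and 149. Nearest to Klf2 was Cobl (r = 0.995), to Klf4 Wtip (0.998), to Klf5 Rpp25 (0.996), to Esrrb Rcc2 (0.999), to Tbx3 Atmin (0.994), to Prdm14 Ppie (0.998) and to Nr5a2 Ltv1 (0.998).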

How the data were processed

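The deposited FPKM values, each with an interval, were used unchanged. The submitters' processing notes name TopHat, Cufflinks and mm10; tool versions and the annotation release are not given in the sources used here. RNA was extracted with a column kit and libraries were made with a NEBNext Ultra kit, per the labels' protocols. Entries on standard chromosomes with an OK status in all 8 libraries and at least 1 FPKM in 1 library were tested (16989 genes). Values were log2(FPKM + 1), which understates the change of low genes. limma 3.58.1 in R 4.3.3 fitted 1 mean for each of 5 groups with a trend, on 3 residual degrees of freedom (1.1 prior), with Benjamini-Hochberg adjustment; a call needed 2-fold or more and an adjusted p below 0.05. On simulated data it recovered 65% to 80% of 4-fold and 80% to 96% of 16-fold changes over 5 comparisons, with 1 to 6 false calls. In each comparison 100 genes were changed 4-fold and 100 were changed 16-fold. Every simulated library had the spread of the lines, so the simulation cannot show the error if single libraries vary more. The fragments behind a level follow from its interval, taken as 2 SD of a count. Gene positions are from the files, and 6 of 10 have the same coordinates in GENCODE M21. The members and lists were chosen with earlier results of these data known. All 10 members are named, with up to 4 called genes of a list with the largest differences, a few genes of a list at stake in a comparison, and the genes most like each member; Fgf5, Klf3, Lifr, Yy1 and other genes that were not called were named after their values were seen. A few genes that these rules pick are not reported here.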

Additional observations from a re-analysis of the deposited data

Results flagged for a closer look

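The change from source cells to CiPSC lines differed between the neural and the intestinal route for 4 of the 10 factors, by the limma test of the difference with Benjamini-Hochberg adjustment over all genes. The same test called 30.5% of all genes, so a count of 4 of 10 is not far from that share. The difference, neural minus intestinal, was -2.01 for Esrrb (adjusted p = 0.000741), 1.99 for Klf2 (adjusted p = 0.0129), 3.29 for Klf4 (adjusted p = 0.00134) and 1.42 for Nr5a2 (adjusted p = 0.00631) on the log2(FPKM + 1) scale. Each source is 1 library, and the level of Esrrb in IEC and of Nr5a2 in NSC rests on less than 2 fragments.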

How the results depend on the processing

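Of 900 values for single factors (10 factors, 6 comparisons, 15 alternatives), 859 kept their direction and their side of the threshold, 15 lost a call, 18 gained one and 8 changed sign. The sign changes were of small values without a call. Nr0b1 in NSC-CiPSC against IEC-CiPSC became 0.77 against its chromosome's median, and its difference between routes became 0.60. Both of these ranged from -0.32 (without NSC-CiPSC line 1) to 0.084 (without NSC-CiPSC line 2) when 1 line was left out, and were 0.060 without IEC-CiPSC line 13. The difference between routes became 0.83 for Tfcp2l1 with a pseudocount of 0.1 and -0.41 for Tbx3 with quantile normalization. The counts of 10 factors called along each route, and of 10 factors with source libraries below all pluripotent ones, did not move. In NSC-CiPSC against ESC the count of 1 became 0 with a pseudocount of 0.1, with entries of every status and without a trend, 2 with a filter on mean FPKM, quantile normalization, an equal sum, robust moderation or chromosome medians, 3 with an equal median, and 0 to 2 when 1 line was left out. In IEC-CiPSC against ESC the count of 0 became 1 with an equal median and was 0 to 1 when 1 line was left out. In NSC-CiPSC against IEC-CiPSC the count of 1 became 0 without a filter on low values and was 0 to 1 when 1 line was left out. The count of 4 between routes became 7 with a pseudocount of 0.1, 3 with quantile normalization and 5 with robust moderation, and was 4 to 5 when 1 line was left out (5 without NSC-CiPSC line 1 or 2). The causes were not tested.

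Over all genes, leaving out 1 line moved the calls against ESC from 476 to between 190 and 725 (NSC-CiPSC) and from 572 to between 154 and 896 (IEC-CiPSC), and between origins from 735 to as few as 98; without NSC-CiPSC line 1 the calls against ESC were 725 and 896. An equal median shifted the median of all genes to 0.25 (neural) and 0.38 (intestinal). The share of calls between routes that were more positive in the neural route was 57.5%, and 47.5% with quantile normalization. No paired analysis was possible because the source and ESC libraries carry no line number that matches a line. In the source libraries, levels of the factors under 1 FPKM rest on 4 fragments or fewer, except Tfcp2l1 in NSC, which rests on 20.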
